A study of Homo sapiens with 28 samples.

Results

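Xenograft tumors left after treatment with Telaglenastat were compared directly with tumors left after treatment with Palbociclib, gene by gene. The comparison used 9 of the 28 RNA-seq libraries of the series, chosen by their sample labels and by no measured value: 4 Telaglenastat tumors (spelled Telaglenestat in the labels) and 5 Palbociclib tumors, each library from a tumor listed as a separate sample. All tumors grew from HCT116-Luciferase-GFP cells, a derivative of the human colorectal carcinoma line HCT116 that was transduced to carry luciferase and GFP, injected under the skin of male NOD SCID mice aged 5 weeks. Dosing started 8 days after implantation and lasted 23 days, with Palbociclib at 100 mg/kg/day or Telaglenastat at 150 mg/kg/day. NOD SCID mice lack mature T and B cells but keep a myeloid compartment, so the host stroma was that of an immunodeficient mouse. Other libraries serve as reference here: 3 Control tumors that received vehicle, 4 Combination tumors that entered the fit only to estimate the spread, and cultures derived from such tumors, 3 per treatment, grown without drug and not linked to a given tumor. Nothing in the labels ties libraries to litters or batches, and the p-values measure the spread between these samples.

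Palbociclib inhibits CDK4 and CDK6, the kinases that pair with D-type cyclins and phosphorylate the retinoblastoma protein RB1. Phosphorylated RB1 releases E2F transcription factors, which drive the genes of DNA replication. Later in the cycle the B-MYB complex with FOXM1 drives the genes of mitosis. Telaglenastat (CB-839) blocks the mitochondrial conversion of glutamine to glutamate, which feeds the TCA cycle, amino acid synthesis and glutathione synthesis. HCT116 carries wild-type p53.

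Reads counted on genes ranged from 6273834 to 10617936 per library in Palbociclib tumors (median 8872622), from 6463239 to 6853368 in Telaglenastat tumors (median 6641870) and from 7539298 to 8849414 in Control tumors. The drug groups differed in their dependence on base composition. Log2 CPM (counts scaled to library size) was taken as its deviation from the mean of the 9 libraries, so slopes are relative and sum to 0. No slope was measured for Control tumors, so these values do not say which drug group departed from them. Per standard deviation of GC content the deviation changed by 0.274 ± 0.108 (SD, n = 5) in Palbociclib tumors and -0.342 ± 0.0377 (SD, n = 4) in Telaglenastat tumors (p = 0.0159 by a two-sided exact permutation test, which cannot give less with 5 against 4). With genes ranked by GC content and cut into 5 equal groups, the median log2 difference went from 0.43 in the group with the least GC to -1.34 in the group with the most. In that last group 84.1% of genes were called lower in Telaglenastat tumors. Whether this trend arose in the cells or in library preparation cannot be told apart from the drug, since the slopes of the groups did not overlap. Gene lists and most named genes are therefore given as counted and after a correction that removed, library by library, the trend on GC content and gene length. A gene's difference without a corrected value beside it is as counted, as are CPM and the sums of cell type markers. The correction assumes that GC-rich and GC-poor genes did not differ as classes between the drugs. Palbociclib tumor 2 stood apart from the other Palbociclib tumors, with a GC slope of 0.0835 against 0.300 to 0.348 and a first principal component of -18.3 against -58.0 to -50.1, while Telaglenastat tumors lay between 52.6 and 66.2 on that component, which held 57.9% of the variance.

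**Figure D1:**
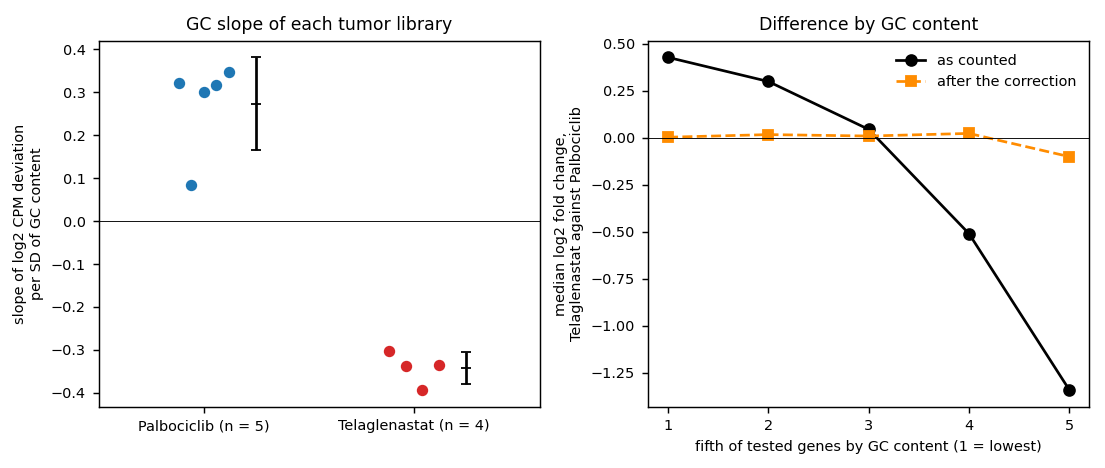
Left, the slope of log2 CPM deviation per SD of GC content in each Palbociclib (n = 5) and Telaglenastat (n = 4) tumor library, with the mean and SD in black. Right, the median log2 fold change (Telaglenastat against Palbociclib) in 5 equal groups of tested genes ranked by GC content, as counted (0.43 in the lowest, -1.34 in the highest) and after the correction (0.00 and -0.10).

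As counted, 8723 of 14848 tested genes passed an adjusted p of 0.05 in edgeR's quasi-likelihood test (the adjusted p meant throughout), 3956 higher in Telaglenastat tumors (26.6%) and 4767 lower (32.1%). After the correction 4442 genes passed, 2109 higher (14.2%) and 2333 lower (15.7%), and 497 genes were called in opposite directions by the 2 fits. Keeping the mean of each library's trend in the correction, an alternative added after the data had been seen, gave 887 higher and 5392 lower. Genes called in the same direction with and without the correction numbered 2776, of which 1090 were higher (7.34% of those tested) and 1686 lower (11.4%), and "called both ways" below refers to these. Without Palbociclib tumor 2 these counts were 1057 and 1694. All libraries of one group lay above all libraries of the other for 7063 genes (47.6%). Log2 differences are Telaglenastat minus Palbociclib, so a positive value means a higher level in Telaglenastat tumors.

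Genes of cell division were higher in Telaglenastat tumors, with the highest medians of the 34 gene lists measured. Of the 54 genes of the G2/M list shipped with Seurat, 43 were called higher both ways and 1 lower, with a median log2 difference of 0.88 as counted and 0.72 after the correction, against -0.01 and 0.00 over all tested genes. Of the 43 tested S phase genes, 31 were higher and 1 lower, with medians of 0.79 and 0.57. Of 40 genes of the mitotic spindle and cytokinesis, 32 were higher and none lower, and this list shares members with the G2/M list. Without Palbociclib tumor 2 the counts were 40 higher and 1 lower for G2/M, 30 higher and 1 lower for S phase and 31 higher and 0 lower for the spindle list. In each library the mean log2(CPM + 1) of the G2/M genes was 5.99, 5.68, 5.93, 5.73 and 5.68 in Palbociclib tumors, 6.58, 6.52, 6.49 and 6.59 in Telaglenastat tumors and 6.51, 6.56 and 6.52 in Control tumors. The means of Telaglenastat tumors thus overlapped those of Control tumors on this list and every Palbociclib tumor sat below both. The median log2 difference of these genes between Telaglenastat and Control tumors was 0.27 as counted and -0.02 after the correction. In bulk tumors, fewer cycling cells and less of these transcripts per cell cannot be told apart.

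Named mitotic genes are given library by library or as ranges. KIF20A was named by a rule that required groups without overlap, and 47.6% of all tested genes had such groups. MKI67 (ENSG00000148773.13, chr10:128096659-128126385, minus strand; coordinates here are on GRCh38 with the gene models of GENCODE 29), the proliferation marker Ki-67, had 274, 219, 235, 244 and 209.6 CPM in Palbociclib tumors and 542, 465, 494 and 573 CPM in Telaglenastat tumors. No Palbociclib library reached the lowest Telaglenastat library, and the log2 difference was 1.13 ± 0.11 (SE; adjusted p = 3.00e-08), 1.08 after the correction. KIF20A (ENSG00000112984.11, chr5:138178719-138187715, plus strand), a kinesin needed for cytokinesis, had 49.2, 33.1, 36.7, 36.8 and 32.3 CPM in Palbociclib tumors and 107, 90.8, 82.0 and 101.2 CPM in Telaglenastat tumors, a log2 difference of 1.33 ± 0.14 (adjusted p = 1.49e-07). CCNA2, the cyclin A gene that serves S phase and mitotic entry, stood at 39.1 to 51.8 CPM in Palbociclib and 118 to 133 CPM in Telaglenastat tumors with a log2 difference of 1.43 ± 0.10 (1.10 after the correction). Its groups did not overlap. CDC25C, the phosphatase that activates CDK1, stood at 5.94 to 9.62 CPM in Palbociclib and 17.0 to 21.0 CPM in Telaglenastat tumors (1.26 as counted, 1.21 corrected), and GAS2L3, which links actin and microtubules at the midbody, at 9.46 to 16.1 CPM in Palbociclib and 36.7 to 45.8 CPM in Telaglenastat tumors (1.68 as counted, 1.16 corrected). The abundant list member CBX5, a heterochromatin protein, differed less, by 0.66 as counted, 0.31 corrected. RANGAP1, the GTPase activator of Ran at nuclear pores, was the G2/M member called lower both ways: it stood at 46.7 to 85.6 CPM in Palbociclib and 17.9 to 26.3 CPM in Telaglenastat tumors, -1.67 as counted, -0.86 corrected.

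Chromatin and lamina genes that accompany division were among the genes with the greatest corrected rise. HMGB2 (ENSG00000164104.11, chr4:173331695-173335125, minus strand), a chromatin-bending protein abundant in dividing cells, had 112, 91.5, 114, 94.8 and 86.9 CPM in Palbociclib tumors and 313, 273, 278 and 291 CPM in Telaglenastat tumors. Its level was 2.88-fold higher in Telaglenastat tumors (log2 difference 1.53 ± 0.11, adjusted p = 1.70e-09), with Control tumors between the groups at 223, 241 and 231 CPM. LMNB1 (ENSG00000113368.11, chr5:126776623-126837020, plus strand), which encodes lamin B1 of the nuclear lamina, had 102, 85.3, 77.7, 74.7 and 71.6 CPM in Palbociclib tumors and 223, 178, 194 and 218 CPM in Telaglenastat tumors. It too was above Control (149, 160.1 and 162 CPM) in every Telaglenastat library and, with 2.46-fold more in Telaglenastat than in Palbociclib tumors, below Control in every Palbociclib library. TCF19, a gene induced at the G1/S boundary, stood at 10.6 to 16.6 CPM in Palbociclib and 20.5 to 27.2 CPM in Telaglenastat tumors (0.86 as counted, 1.29 corrected).

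Genes that act at S phase entry and at the replication fork were also higher, though less uniformly. CCNE2 (ENSG00000175305.17, chr8:94879770-94896678, minus strand), the cyclin E2 partner of CDK2, had 9.63, 10.6, 6.34, 8.07 and 10.7 CPM in Palbociclib tumors and 33.1, 33.7, 29.8 and 30.7 CPM in Telaglenastat tumors. That was a 3.52-fold difference (log2 1.82 ± 0.17, adjusted p = 3.27e-08), and Control tumors had 26.5, 23.02 and 27.9 CPM. FAM111B, a protease gene that peaks in S phase, had 14.2, 11.8, 12.5, 11.4 and 8.04 CPM in Palbociclib tumors and 34.0, 40.1, 39.2 and 43.3 CPM in Telaglenastat tumors. The rule that named it and CCNE2 required groups without overlap. GMNN, which encodes the licensing inhibitor geminin, stood at 9.53 to 17.1 CPM in Palbociclib and 29.5 to 40.5 CPM in Telaglenastat tumors (1.43 as counted, 1.23 corrected). PRIM1, the catalytic primase subunit, stood at 17.3 to 24.7 CPM in Palbociclib and 44.5 to 53.2 CPM in Telaglenastat tumors (1.24 as counted, 0.94 corrected). GINS2, part of the replicative helicase, stood at 20.1 to 28.7 CPM in Palbociclib and 40.5 to 46.4 CPM in Telaglenastat tumors (0.76 as counted, 0.79 corrected). Of 39 genes of replication origins and forks, 15 were called higher both ways and 2 lower, with a corrected median of 0.34. The 2 exceptions were MCM5, a subunit of the MCM helicase, at 35.4 to 66.1 CPM in Palbociclib and 14.9 to 24.7 CPM in Telaglenastat tumors (-1.51 as counted, -0.68 corrected), and LIG1, the ligase of Okazaki fragments, at 25.2 to 38.7 CPM in Palbociclib and 15.03 to 18.8 CPM in Telaglenastat tumors (-1.04 as counted, -0.28 corrected). Their transcripts have GC contents of 57.0% and 56.4%, and both stayed lower after the correction, but 1 gene was called lower without Palbociclib tumor 3 or 5 or Telaglenastat tumor 1, 3 or 4. PSMC3IP, a cofactor of homologous recombination, was higher, at 3.81 to 7.73 CPM in Palbociclib and 10.2 to 15.5 CPM in Telaglenastat tumors (1.09 as counted, 1.23 corrected).

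The supply of deoxynucleotides moved the same way. Of 15 genes, 6 were higher both ways, among them RRM1, RRM2, TYMS, DUT and DCK, and 1 was lower, with a corrected median of 0.35. RRM2, the regulated small subunit of ribonucleotide reductase, had 204, 151, 174, 138 and 141 CPM in Palbociclib tumors and 435, 417, 449 and 402 CPM in Telaglenastat tumors, a 2.63-fold difference (log2 1.40 ± 0.11, adjusted p = 5.20e-09). RRM1, the large subunit, had 102, 92.4, 103, 87.5 and 88.6 CPM in Palbociclib tumors and 212, 204, 213 and 218 CPM in Telaglenastat tumors (1.16 as counted, 0.87 corrected). TYMS, thymidylate synthase, stood at 78.8 to 104 CPM in Palbociclib and 150.2 to 162 CPM in Telaglenastat tumors (0.75 as counted, 0.89 corrected). All 3 genes separated the groups without overlap, as did 11 of the 15 genes of the list and 47.6% of all tested genes. The gene called lower, the nucleoside diphosphate kinase NME1, stood at 221 to 271 CPM in Palbociclib and 189 to 201 CPM in Telaglenastat tumors (-0.33 as counted, -0.34 corrected). Its reads can be shared with its near copy NME2 and with a read-through gene that spans both.

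The promoters of these lists were searched for short motifs, since the lists that moved together are known for different promoter elements. Division genes named from the lists and called higher both ways, with the chromosome of CCNE2 left out, gave 13 with a promoter at hand. The 4 of these that held a CHR or E2F element are shown, so they were picked for these letters. CDC25C, GMNN, GAS2L3 and CDKN2C held none of the letters searched. The elements are the CHR (cell cycle genes homology region, TTTGAA), the CCAAT box bound by NF-Y, and E2F sites, for which the letters TTTCCCGC and TTTGGCGC were searched. Sequences are the 250 bases before the start of each RefSeq gene on GRCh38.p14, in the direction of the gene, and capitals mark a CHR, a CCAAT box or an E2F site on either strand. MKI67 lies at chr10:128126424-128126673 (minus strand), RRM1 at chr11:4094435-4094684 (plus strand), GINS2 at chr16:85688955-85689204 (minus strand) and TYMS at chr18:657403-657652 (plus strand).
MKI67: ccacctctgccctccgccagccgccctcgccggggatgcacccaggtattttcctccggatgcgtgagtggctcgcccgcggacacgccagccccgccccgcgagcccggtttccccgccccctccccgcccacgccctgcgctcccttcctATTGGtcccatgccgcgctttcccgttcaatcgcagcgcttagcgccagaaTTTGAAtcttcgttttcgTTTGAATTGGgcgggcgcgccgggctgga
RRM1: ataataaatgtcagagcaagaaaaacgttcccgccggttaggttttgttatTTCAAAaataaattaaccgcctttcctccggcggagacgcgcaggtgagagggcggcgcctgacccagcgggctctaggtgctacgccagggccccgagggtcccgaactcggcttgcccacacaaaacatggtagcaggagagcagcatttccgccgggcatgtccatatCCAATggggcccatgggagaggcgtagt
GINS2: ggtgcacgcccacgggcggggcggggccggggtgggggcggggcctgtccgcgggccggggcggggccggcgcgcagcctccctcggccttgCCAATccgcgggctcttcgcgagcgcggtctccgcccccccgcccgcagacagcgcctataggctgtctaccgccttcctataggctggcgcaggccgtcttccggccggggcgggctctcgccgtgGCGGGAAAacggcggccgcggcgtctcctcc
TYMS: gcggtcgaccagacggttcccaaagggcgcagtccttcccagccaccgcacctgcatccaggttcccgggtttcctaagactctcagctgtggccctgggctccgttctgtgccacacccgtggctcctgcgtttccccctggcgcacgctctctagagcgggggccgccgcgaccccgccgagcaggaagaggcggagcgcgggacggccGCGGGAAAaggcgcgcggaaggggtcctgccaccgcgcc
In MKI67 there are 2 CHR matches, starting at -47 and -29 bases from the gene's start, the second overlapping a CCAAT box on the opposite strand, and a further CCAAT box at -98. RRM1 has a CHR on the opposite strand at -199 and a CCAAT box at -28. GINS2 and TYMS each hold the E2F letters TTTCCCGC on the opposite strand, at -31 and -39, and GINS2 a CCAAT box at -158. Promoters were matched for 45 of 54 G2/M genes and 33 of 43 S phase genes. A CHR was present in 53.3% of the G2/M promoters, in 3.03% of the S phase promoters (RRM1 alone), in 8.18% of 10124 promoters of tested genes and in 13.6% of all 27305. An E2F site of either kind was present in 36.4% of S phase and 4.44% of G2/M promoters, against 3.20% of those of tested genes and 1.96% of all. CCAAT boxes were present in 68.9% of G2/M and 66.7% of S phase promoters, against 35.1% and 33.0%. These are matches of letters and not evidence of binding. The shares used no difference between the drug groups. The 13 genes, however, were chosen as called higher, and the tested genes as having enough counts.

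The genes of the CDK4/6-RB-E2F axis itself were split. Of 27 tested genes, 10 were higher both ways and 2 lower, with a median of 0.07 as counted and 0.38 after the correction. The 2 lower genes were a kinase target of Palbociclib and its cyclin. CCND1 (ENSG00000110092.3, chr11:69641087-69654474, plus strand), which encodes cyclin D1, had 1054, 997, 914, 1012 and 1046 CPM in Palbociclib tumors and 606, 469, 504 and 520.1 CPM in Telaglenastat tumors. The Palbociclib level was 1.91-fold that of Telaglenastat tumors (log2 difference -0.94 ± 0.07, adjusted p = 2.29e-09), and Telaglenastat tumors overlapped Control tumors (511, 526 and 518 CPM). CDK6 (ENSG00000105810.9, chr7:92604921-92836594, minus strand) had 39.9, 39.0, 40.9, 35.5 and 38.2 CPM in Palbociclib tumors and 21.0, 27.0, 21.1 and 23.7 CPM in Telaglenastat tumors, a log2 difference of -0.74 ± 0.20 (adjusted p = 0.00307), while the Control tumors spread widely at 13.6, 39.6 and 18.6 CPM. For CDK4 the difference was -0.49 ± 0.08 as counted and 0.00 after the correction (adjusted p = 0.970), and for CCND3, cyclin D3, -0.77 ± 0.15 and 0.00, so neither call outlasted the correction. RB1 stood at 72.8 to 94.0 CPM in Palbociclib and 129 to 147 CPM in Telaglenastat tumors (0.73 as counted, 0.27 corrected).

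The E2F repressors and an INK4 inhibitor were on the higher side. CDKN2C, which encodes the CDK4/6 inhibitor p18, had 1.89, 3.81, 2.58, 2.13 and 1.58 CPM in Palbociclib tumors and 7.30, 5.71, 4.25 and 8.33 CPM in Telaglenastat tumors, a low level at which the log2 difference was 1.41 ± 0.33, 2.31 after the correction. E2F8 stood at 7.25 to 8.97 CPM in Palbociclib and 15.7 to 26.9 CPM in Telaglenastat tumors (1.34 as counted, 1.14 corrected) and E2F7 at 16.6 to 22.2 CPM in Palbociclib and 33.3 to 43.2 CPM in Telaglenastat tumors (1.11 as counted, 0.81 corrected), atypical E2F factors that restrain E2F targets late in S phase. CCND2, which encodes cyclin D2, had too few counts to be tested.

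Genes of glutamine and glutamate handling, the metabolism that Telaglenastat acts on, had a median difference near 0 as a list, with members on both sides. GLUL, glutamine synthetase, stood at 141 to 163 CPM in Palbociclib and 154 to 196 CPM in Telaglenastat tumors, with a difference of 0.19 ± 0.07 (adjusted p = 0.0172) that became -0.07 (adjusted p = 0.423) after the correction. GLUD1, glutamate dehydrogenase, stood at 189.9 to 232 CPM in Palbociclib and 222 to 241 CPM in Telaglenastat tumors (0.12 as counted, -0.04 corrected), which passed neither test. Of the 23 list members, 2 were higher both ways (1 when any library but Palbociclib tumor 1 or Telaglenastat tumor 3 was left out) and 3 lower, with medians of 0.04 as counted and -0.04 after the correction. Over all tested genes 7.34% were higher and 11.4% lower both ways, so these counts were close to the general share. GMPS, the glutamine-dependent GMP synthetase, had 115, 134, 102, 104 and 107 CPM in Palbociclib tumors and 193, 172, 179 and 177 CPM in Telaglenastat tumors (0.68 as counted, 0.32 corrected). On the lower side, PYCR1, which makes proline from glutamate-derived pyrroline carboxylate, stood at 58.6 to 98.9 CPM in Palbociclib and 17.5 to 24.01 CPM in Telaglenastat tumors (-1.93 as counted, -0.60 corrected) and NADSYN1, a glutamine-dependent NAD synthetase, at 24.7 to 35.4 CPM in Palbociclib and 11.6 to 14.9 CPM in Telaglenastat tumors (-1.24 as counted, -0.38 corrected). The as-counted difference of PYCR1 shrank by more than a log2 unit when the trend was removed.

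Secreted and surface proteins of squamous and secretory epithelium were lower in Telaglenastat tumors. A list of secreted antimicrobial proteins and kallikreins held 24 genes, of which 12 had enough counts to be tested. Of these, 11 were lower both ways and none higher, with medians of -2.22 as counted and -1.50 after the correction (0 higher and 10 lower without Palbociclib tumor 2). All lists but those from Seurat, this list included, were written with earlier results of these libraries in view. Members with few counts in Telaglenastat tumors entered the test through the Palbociclib tumors. List counts and medians are therefore descriptions. In each library the list's mean log2(CPM + 1) was 4.06, 3.95, 3.599, 4.36 and 4.16 in Palbociclib tumors and 2.36, 2.38, 2.56 and 1.83 in Telaglenastat tumors, with Control tumors between them at 2.95, 2.80 and 2.90. After the correction Control tumors (2.44, 2.14 and 2.38) lay within the range of Telaglenastat tumors (1.37 to 2.52) and below Palbociclib tumors (3.12 to 3.98). KLK6 (ENSG00000167755.14, chr19:50958631-50969673, minus strand), a kallikrein-type serine protease, had 217, 174, 117, 199.9 and 202 CPM in Palbociclib tumors and 43.2, 33.7, 44.0 and 32.6 CPM in Telaglenastat tumors, a 4.74-fold lower level in Telaglenastat tumors (log2 difference -2.25 ± 0.16, adjusted p = 1.05e-09). KLK7, a neighbouring protease of epidermal shedding, had 93.5, 99.0, 61.7, 98.5 and 104 CPM in Palbociclib tumors and 29.9, 25.1, 32.0 and 20.2 CPM in Telaglenastat tumors (-1.77 as counted, -1.69 corrected). Both were separated without overlap, as were 9 of the 12 tested genes of the list and 47.6% of all tested genes.

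Low-abundance members followed the same order. KLK5 had 20.3, 6.57, 6.87, 16.7 and 16.1 CPM in Palbociclib tumors and 1.22, 0.418, 0 and 0 CPM in Telaglenastat tumors, including 2 Telaglenastat libraries without a read, and LCN2, the iron-chelating lipocalin, had 22.1, 13.4, 18.6, 24.7 and 17.2 CPM in Palbociclib tumors and 3.04, 7.66, 3.64 and 2.23 CPM in Telaglenastat tumors. LCN2 was near the Control level (2.69, 2.99 and 4.00 CPM) in Telaglenastat tumors and above it in each Palbociclib tumor. SLPI, a leukocyte protease inhibitor, stood at 5.48 to 12.1 CPM in Palbociclib and 0 to 1.97 CPM in Telaglenastat tumors (-2.69 as counted, -2.21 corrected) and the calcium buffer CALB1 at 2.26 to 8.52 CPM in Palbociclib and 0.697 to 2.28 CPM in Telaglenastat tumors (-1.91 as counted, -2.45 corrected). MUC1, a mucin whose transcript has a GC content of 71.2%, was the exception: it was lower as counted (-1.10) and higher after the correction (0.91, adjusted p = 0.0284), at 4.83 to 12.3 CPM in Palbociclib and 2.23 to 6.23 CPM in Telaglenastat tumors.

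Keratins of stratified epithelium were among the 12 largest corrected falls that met the naming rule. KRT6B (ENSG00000185479.5, chr12:52446651-52452126, minus strand) had 73.6, 103, 157, 165 and 84.8 CPM in Palbociclib tumors and 13.7, 8.22, 13.7 and 6.99 CPM in Telaglenastat tumors. Palbociclib tumors were 11.0-fold above Telaglenastat tumors (log2 difference -3.46 ± 0.33, adjusted p = 2.68e-08, -2.66 after the correction), and Control tumors had 26.8, 61.9 and 41.1 CPM. Reads of KRT6B can be shared with its near-identical paralog KRT6A. KRT5 (ENSG00000186081.11, chr12:52514575-52520687, minus strand), the basal keratin, had 119, 92.8, 92.8, 207 and 137 CPM in Palbociclib tumors and 21.9, 12.7, 19.3 and 11.2 CPM in Telaglenastat tumors, a log2 difference of -3.00 ± 0.32 (adjusted p = 1.26e-07). The simple-epithelium keratins were lower too: KRT8 stood at 1078 to 1735 CPM in Palbociclib and 422 to 533 CPM in Telaglenastat tumors (-1.74 as counted, -0.98 corrected). KRT18 stood at 986 to 1352 CPM in Palbociclib and 319 to 414 CPM in Telaglenastat tumors (-1.79 as counted, -1.06 corrected), and KRT19 at 359 to 652 CPM in Palbociclib and 97.0 to 134 CPM in Telaglenastat tumors (-2.33 as counted, -0.95 corrected). KRT8 and KRT18 overlap on opposite strands, and whether counting used strand is not given in the sources used here. EPCAM, the epithelial adhesion molecule, went the other way, at 382 to 467 CPM in Palbociclib and 467 to 492 CPM in Telaglenastat tumors (0.24 as counted, 0.17 corrected), and its groups overlapped at 467 CPM.

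Extracellular and membrane proteins made up much of the remaining rule-named falls. MMP7 (ENSG00000137673.8, chr11:102520508-102530753, minus strand), the protease matrilysin, had 82.6, 102, 95.03, 88.0 and 72.5 CPM in Palbociclib tumors and 23.9, 18.5, 26.3 and 18.2 CPM in Telaglenastat tumors. That was 4.06-fold more in Palbociclib tumors (log2 difference -2.02 ± 0.15, adjusted p = 1.75e-09), and since MMP7 has a low GC content the corrected difference was larger, -2.29. IGFBP6, a binding protein for insulin-like growth factors, had 46.7, 35.2, 44.7, 65.6 and 54.3 CPM in Palbociclib tumors and 4.56, 5.85, 2.89 and 2.53 CPM in Telaglenastat tumors (-3.62 as counted, -2.04 corrected). SUSD2, a sushi-domain membrane protein, had 89.5, 68.6, 95.2, 124 and 119 CPM in Palbociclib tumors and 10.8, 10.5, 9.41 and 4.17 CPM in Telaglenastat tumors (-3.51 as counted, -2.08 corrected). In all 3 genes the Control tumors lay between the drugs, although for MMP7 the lowest Control tumor (22.6 CPM) lay within the Telaglenastat range. F3, tissue factor, had 318, 252, 464, 479 and 283 CPM in Palbociclib tumors and 139, 104, 140.2 and 68.2 CPM in Telaglenastat tumors and Control tumors 75.1, 81.8 and 112 CPM, so the Palbociclib tumors stood above both other groups. SPARC (ENSG00000113140.10, chr5:151661096-151687165, minus strand), the matricellular protein osteonectin, showed the other arrangement, with 83.6, 80.3, 60.2, 81.8 and 80.9 CPM in Palbociclib tumors and 22.8, 21.3, 21.6 and 17.9 CPM in Telaglenastat tumors and 78.7, 84.1 and 73.5 CPM in Control tumors. There the Telaglenastat tumors stood below both other groups (log2 difference from Palbociclib tumors -1.89 ± 0.14, adjusted p = 2.24e-09). CST3, the secreted protease inhibitor cystatin C, was arranged like SPARC, at 53.5 to 93.4 CPM in Palbociclib and 19.8 to 31.2 CPM in Telaglenastat tumors (-1.62 as counted, -1.82 corrected).

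Of 27 genes of epithelial and mesenchymal state, 11 were lower both ways and 2, EPCAM and TWIST1, higher, with medians of -0.47 and -0.48. The lower genes came from both sides of the list and included epithelial (CDH1, CLDN4, JUP) and mesenchymal or matrix (VIM, SNAI2, ITGA5, L1CAM, SPARC, TGFBI, LAMB3). TGFBI, a TGF-beta induced matrix protein, stood at 13.802 to 22.7 CPM in Palbociclib and 3.34 to 7.30 CPM in Telaglenastat tumors (-1.88 as counted, -1.73 corrected). VIM, vimentin, had 37.7, 72.3, 235, 47.4 and 48.7 CPM in Palbociclib tumors and 27.1, 26.6, 31.6 and 33.9 CPM in Telaglenastat tumors, and Palbociclib tumor 3 stood far above the rest: the log2 difference was -1.57, and -0.79 without that tumor. TWIST1, a mesenchymal transcription factor, was low and higher in Telaglenastat tumors, at 1.58 to 2.90 CPM in Palbociclib and 2.58 to 4.598 CPM in Telaglenastat tumors (0.88 as counted, 1.77 corrected), with an as-counted adjusted p of 0.0533 without Telaglenastat tumor 2. The count of higher genes on this list ran from 1 (without Palbociclib tumor 3 or Telaglenastat tumor 1 or 2) to 3. Of 33 secreted inflammatory and growth factor genes 20 were tested, of which 8 were lower and 1, LMNB1, which is a lamina gene listed as a senescence marker, was higher.

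Markers of other cell types were measured beside these groups. The summed CPM of 12 colorectal epithelial markers ranged from 3260 to 4538 in Palbociclib and from 1589 to 1819 in Telaglenastat tumors, with 8 of 10 tested markers lower as counted and 1, EPCAM, higher, and 2992 to 3552 in Control tumors. For 13 fibroblast and pericyte markers the sums were 136 to 228 and 72.6 to 80.2 CPM, with 4 of 8 tested markers lower as counted and 1, the pericyte gene RGS5, higher (3.70 to 7.37 and 5.77 to 14.3 CPM). COL1A1, a collagen chain, stood at 68.2 to 146 CPM in Palbociclib and 22.8 to 28.1 CPM in Telaglenastat tumors, and the defining stromal genes DCN and LUM were at or near 0. For 12 macrophage and myeloid markers they were 23.9 to 34.3 and 3.95 to 11.4 CPM, of which the lysosomal gene CD68 gave 12.4 to 24.8 CPM in Palbociclib and 0.595 to 3.49 CPM in Telaglenastat tumors, while CD14, C1QA and AIF1 were at or near 0. Endothelial markers summed to 3.59 to 5.84 and 2.43 to 4.40 CPM, lymphocyte and erythroid markers to less than 1 CPM in every library, and adipocyte and muscle markers to 4.40 to 119 and 5.16 to 16.6 CPM. The libraries were aligned to the human genome, and how reads of the mouse host were treated is not given in the sources used here. The part of host reads in the secreted and matrix genes was not tested.

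Genes of the cytosolic ribosome were lower in Telaglenastat tumors. Of 79 ribosomal protein genes, 47 were lower both ways and none higher, a count that stayed at 47 without Palbociclib tumor 2, with medians of -0.60 and -0.44. The mean log2(CPM + 1) of the list was 9.35, 9.46, 9.58, 9.502 and 9.55 in Palbociclib tumors and 8.72, 8.82, 8.76 and 8.76 in Telaglenastat tumors. Control tumors lay nearer the former, at 9.23, 9.37 and 9.37, and no drug library crossed between the groups. RPS9 (ENSG00000170889.13, chr19:54200742-54249003, plus strand), a protein of the small subunit, had 340.1, 223, 364, 342 and 396 CPM in Palbociclib tumors and 58.7, 58.4, 51.9 and 52.2 CPM in Telaglenastat tumors. This was the largest fall in the list that met the naming rule, 6.02-fold (log2 difference -2.59 ± 0.13, adjusted p = 1.10e-10, -1.81 after the correction). RPLP1, a stalk protein of the large subunit, had 437, 313, 466, 464 and 494 CPM in Palbociclib tumors and 148, 160.2, 132 and 159 CPM in Telaglenastat tumors (-1.54 as counted, -1.66 corrected). RPS26 stood at 143 to 216 CPM in Palbociclib and 51.0 to 72.3 CPM in Telaglenastat tumors (-1.53 as counted, -1.52 corrected). The abundant RPLP0 stood at 2044 to 2864 CPM in Palbociclib and 994 to 1177 CPM in Telaglenastat tumors (-1.25 as counted, -1.09 corrected). Ribosomal protein genes have many processed pseudogenes, so single-gene values depend on how shared reads were counted.

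The nucleolar machinery that builds ribosomes did not move as a block. Of 36 MYC-related and nucleolar genes, 5 were higher both ways (3 without Telaglenastat tumor 1 or 4) and 6 lower, with medians of -0.02 and 0.00. The shares over all tested genes were 7.34% higher and 11.4% lower. BOP1, needed for the large subunit, stood at 17.1 to 41.8 CPM in Palbociclib and 3.80 to 6.99 CPM in Telaglenastat tumors (-2.70 as counted, -1.07 corrected), and RRP9, a U3 snoRNA protein, at 13.1 to 24.9 CPM in Palbociclib and 1.97 to 6.85 CPM in Telaglenastat tumors (-2.09 as counted, -0.81 corrected). ODC1, the ornithine decarboxylase of polyamine synthesis and a MYC target, had 351, 333, 306, 267 and 307 CPM in Palbociclib tumors and 445, 462, 422 and 436 CPM in Telaglenastat tumors, higher in Telaglenastat tumors (0.50 as counted, 0.72 corrected).

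**Figure D2:**
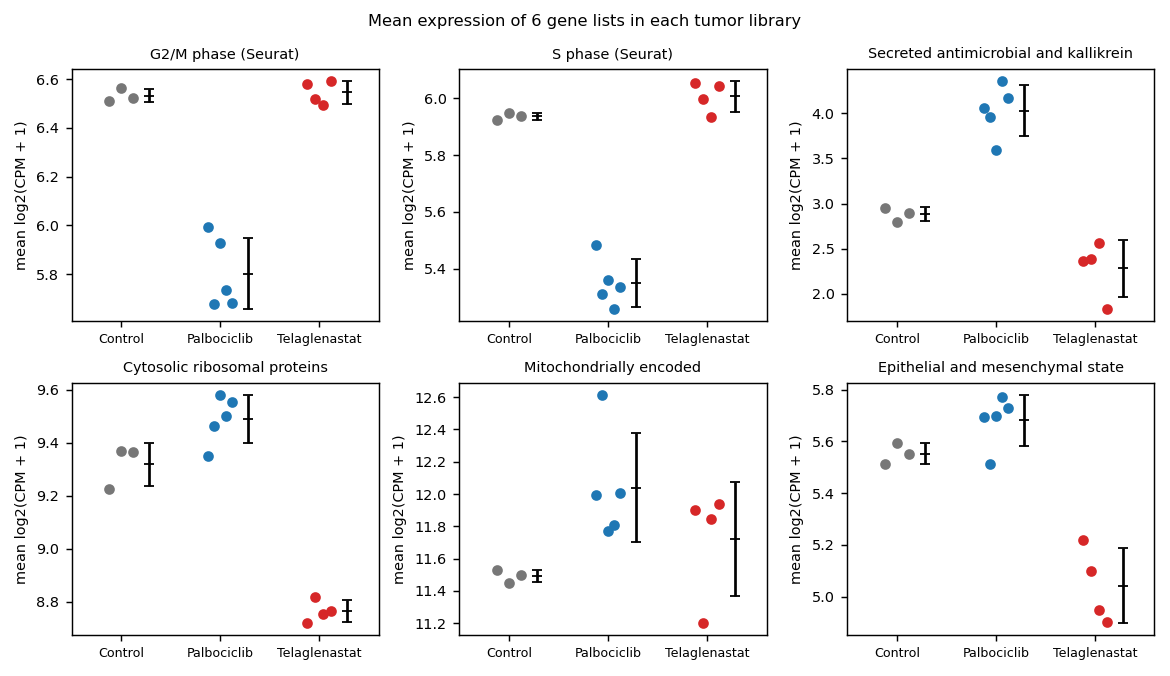
Mean log2(CPM + 1) of 6 gene lists as counted in each Control (grey), Palbociclib (blue) and Telaglenastat (red) tumor library, with the group mean and SD in black and axes that do not start at 0. Palbociclib tumors lie below the other groups for the G2/M and S phase lists, Telaglenastat tumors lie below the other groups for ribosomal protein, antimicrobial and epithelial lists, and the mitochondrially encoded list overlaps between the drugs (11.8 to 12.6 against 11.2 to 11.9).

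Respiratory chain genes encoded in the nucleus were lower for a minority of members. Of 73 genes, 24 were lower both ways and 1 higher, against 11.4% and 7.34% of all tested genes. The medians were -0.18 as counted and -0.18 after the correction. COX4I1, a core-associated subunit of cytochrome c oxidase, had 263, 217, 293, 258 and 272 CPM in Palbociclib tumors and 84.7, 96.7, 69.4 and 89.0 CPM in Telaglenastat tumors (-1.62 as counted, -1.70 corrected). NDUFA11, an accessory subunit of complex I, stood at 8.81 to 25.4 CPM in Palbociclib and 1.82 to 2.65 CPM in Telaglenastat tumors (-3.08 as counted, -1.67 corrected) and ATP5G2, a subunit c gene of ATP synthase, at 105 to 145 CPM in Palbociclib and 39.3 to 47.6 CPM in Telaglenastat tumors (-1.66 as counted, -1.67 corrected). These genes separated the groups, as did 37 of the 73 genes of the list and 47.6% of all tested genes. For these genes Control tumors were near the Palbociclib level, for example 242, 278 and 248 CPM for COX4I1. The gene on the higher side was ATP5B, the catalytic beta subunit, at 788 to 932 CPM in Palbociclib and 941 to 1018 CPM in Telaglenastat tumors with a small difference (0.18 as counted, 0.45 corrected) whose as-counted adjusted p rose to as much as 0.104 when single libraries were left out (leaving out Palbociclib tumor 3, 4 or 5 or Telaglenastat tumor 1, 3 or 4 ended the call).

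Of the 13 protein genes of the mitochondrial genome, 3 were called lower both ways (MT-ND5, MT-ND1 and MT-ND6, all subunits of complex I) and none higher, with a corrected median of -0.38. MT-ND1 had 4063, 5664, 3258, 3405 and 3890.1 CPM in Palbociclib tumors and 2771, 1818, 3131 and 2878 CPM in Telaglenastat tumors, a log2 difference of -0.61 ± 0.14 (adjusted p = 0.00103). Palbociclib tumor 2 had the highest and Telaglenastat tumor 2 the lowest value, and the count of lower genes depended on single libraries. It was 1 without Palbociclib tumor 2 or Telaglenastat tumor 2 or 3, 5 without Palbociclib tumor 4 and 6 without Palbociclib tumor 3 or Telaglenastat tumor 4. Without Palbociclib tumor 2 the log2 difference of MT-ND5 went from -0.44 to -0.28 and that of MT-ND6 from -0.39 to -0.23, and without Telaglenastat tumor 2 they were -0.27 and -0.21. MT-CO1, the catalytic core of cytochrome c oxidase, stood at 15864 to 28989 CPM in Palbociclib and 14647 to 19622 CPM in Telaglenastat tumors and passed in neither fit (-0.20 as counted, -0.29 corrected).

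Glycolytic genes leaned the same way. Of 29, 9 were lower both ways and none higher (1 without Palbociclib tumor 1), against 11.4% and 7.34% of all tested genes. The median was -0.45 as counted and -0.14 after the correction, and the median GC content of the members was 52.95%. ALDOA, aldolase A, had 1187, 567, 1307, 1363 and 1238 CPM in Palbociclib tumors and 256, 253, 206 and 229 CPM in Telaglenastat tumors. It was 4.80-fold lower in Telaglenastat tumors (log2 difference -2.26 ± 0.18, adjusted p = 2.73e-09) and -1.69 after the correction, and Palbociclib tumor 2 was far below the rest of its group. SLC16A3, the lactate exporter MCT4, stood at 51.3 to 132 CPM in Palbociclib and 18.2 to 24.8 CPM in Telaglenastat tumors (-2.42 as counted, -1.03 corrected) and GPI, glucose-6-phosphate isomerase, at 631 to 1141 CPM in Palbociclib and 342 to 398 CPM in Telaglenastat tumors (-1.39 as counted, -0.97 corrected). ENO1, enolase, was lower both ways (-0.65 as counted, -0.26 corrected), and GAPDH, lower by -1.28 as counted, was no longer called after the correction (-0.21, adjusted p = 0.0576). G6PC3, the ubiquitous glucose-6-phosphatase, was among the rule-named falls, with 28.3, 18.8, 28.6, 18.3 and 25.7 CPM in Palbociclib tumors and 7.45, 4.32, 5.31 and 5.66 CPM in Telaglenastat tumors (-2.08 as counted, -1.98 corrected).

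In the pentose phosphate pathway 6 of 14 genes were lower both ways and 1 higher (2 without Palbociclib tumor 1). PGLS, the lactonase of its oxidative arm, stood at 7.23 to 12.7 CPM in Palbociclib and 1.21 to 2.51 CPM in Telaglenastat tumors (-2.40 as counted, -1.06 corrected). RBKS, ribokinase, stood at 4.71 to 6.47 CPM in Palbociclib and 1.19 to 4.40 CPM in Telaglenastat tumors (-0.80 as counted, -0.94 corrected), where the call was lost without any of 4 single libraries (-0.53, adjusted p = 0.122, without Telaglenastat tumor 4). PRPS2, which makes the ribose donor of nucleotide synthesis, was the higher gene, at 51.3 to 73.9 CPM in Palbociclib and 81.4 to 98.9 CPM in Telaglenastat tumors (0.59 as counted, 0.31 corrected). Among 26 TCA cycle genes 3 were higher both ways (SUCLA2, FH, MDH1) and 5 lower, against 7.34% and 11.4% of all tested genes. IDH3G, a regulatory subunit of isocitrate dehydrogenase, had 51.0, 26.6, 53.6, 48.2 and 57.7 CPM in Palbociclib tumors and 5.62, 11.8, 6.53 and 5.80 CPM in Telaglenastat tumors (-2.66 as counted, -1.36 corrected). OGDH, which oxidises the alpha-ketoglutarate that glutamate supplies, stood at 69.1 to 101.1 CPM in Palbociclib and 27.2 to 41.2 CPM in Telaglenastat tumors (-1.33 as counted, -0.58 corrected).

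Amino acid uptake and the ATF4 stress response showed large as-counted differences that mostly did not outlast the correction. Of 30 ATF4-related genes, 17 were lower and 4 higher as counted, and 5 were lower and 8 higher after the correction. Only 4 were lower and 1 higher both ways, and the median went from -0.52 to -0.08. Without Palbociclib tumor 1 or Telaglenastat tumor 2 the lower genes numbered 2, and a higher gene remained called only without Palbociclib tumor 1 or Telaglenastat tumor 3. Over all tested genes the shares called both ways were 11.4% lower and 7.34% higher, so 4 lower of 30 was close to the general share. The median GC content of the ATF4-related genes was 52.0%. EIF4EBP1, a repressor of cap-dependent translation, had 42.4, 21.0, 37.9, 42.6 and 35.2 CPM in Palbociclib tumors and 6.84, 9.75, 5.31 and 5.95 CPM in Telaglenastat tumors (-2.36 as counted, -0.64 corrected). SESN2, a leucine sensor upstream of mTORC1, stood at 11.3 to 21.9 CPM in Palbociclib and 4.46 to 6.69 CPM in Telaglenastat tumors (-1.56 as counted, -0.48 corrected) and JDP2, a bZIP repressor, at 2.50 to 8.59 CPM in Palbociclib and 1.25 to 3.87 CPM in Telaglenastat tumors (-1.27 as counted, -1.03 corrected). Of 23 amino acid transporters 5 were lower both ways (3 without Telaglenastat tumor 2 or 3, 2 without Telaglenastat tumor 4) and none higher, among them SLC38A5, a transporter of glutamine and serine. It had 55.8, 43.6, 60.7, 68.4 and 55.8 CPM in Palbociclib tumors and 21.9, 21.9, 15.2 and 22.8 CPM in Telaglenastat tumors (-1.48 as counted, -0.64 corrected). The mitochondrial glutamate carrier SLC25A22 stood at 11.4 to 21.4 CPM in Palbociclib and 2.13 to 7.14 CPM in Telaglenastat tumors (-2.15 as counted, -0.69 corrected). The glycine transporter SLC6A9 stood at 3.25 to 6.15 CPM in Palbociclib and 0.595 to 1.52 CPM in Telaglenastat tumors (-2.37 as counted, -1.28 corrected).

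Genes of lipid synthesis were called in both directions. Of 25 cholesterol synthesis genes, 6 were higher both ways (INSIG1, ACAT2, HMGCS1, FDFT1, SQLE, STARD4) and 2 lower. Without Palbociclib tumor 2 the counts were 4 and 4, and without Telaglenastat tumor 3 or 4 a single gene was lower. The median turned from -0.20 as counted to 0.12 after the correction. ACAT2, which makes acetoacetyl-CoA at the start of the pathway, had 36.8, 25.9, 38.7, 32.7 and 23.3 CPM in Palbociclib tumors and 49.1, 46.5, 54.4 and 52.1 CPM in Telaglenastat tumors, a log2 difference of 0.67 ± 0.16 (adjusted p = 0.00126). Control tumors, at 55.9, 65.0 and 67.3 CPM, were above both drugs. Of 19 fatty acid synthesis genes 5 were higher (3 without Telaglenastat tumor 1 or 3) and 1 lower (none without Telaglenastat tumor 2 or 3), with FADS1, the delta-5 desaturase, at 76.8 to 104 CPM in Palbociclib and 128 to 148 CPM in Telaglenastat tumors (0.59 as counted, 0.69 corrected). The lower gene was FASN, fatty acid synthase, at 91.2 to 199 CPM in Palbociclib and 38.4 to 52.3 CPM in Telaglenastat tumors, whose difference of -1.91 as counted was -0.29 after the correction. FADS3, a neighbour of FADS1 on chromosome 11, was among the rule-named falls at 13.1 to 25.4 CPM in Palbociclib and 2.65 to 4.41 CPM in Telaglenastat tumors (-2.67 as counted, -1.93 corrected). Of 20 fatty acid oxidation genes 3 were higher and 2 lower, against 7.34% and 11.4% of all tested genes. ETFB, an electron transfer flavoprotein subunit, stood at 22.2 to 39.1 CPM in Palbociclib and 4.88 to 10.03 CPM in Telaglenastat tumors (-2.15 as counted, -2.17 corrected). ACAA1, the peroxisomal thiolase, stood at 25.1 to 44.0 CPM in Palbociclib and 9.34 to 16.4 CPM in Telaglenastat tumors (-1.54 as counted, -1.50 corrected).

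The remaining rule-named genes belong to none of these groups. NEURL1B (ENSG00000214357.8, chr5:172641266-172691540, plus strand), a ubiquitin ligase of Notch ligands, had 10.01, 9.60, 10.6, 10.3 and 9.46 CPM in Palbociclib tumors and 21.3, 14.8, 16.2 and 15.2 CPM in Telaglenastat tumors, the largest corrected rise (1.72, 0.75 as counted). NR2F1, an orphan nuclear receptor, had 107, 106, 127, 108 and 104 CPM in Palbociclib tumors and 153, 167, 177 and 189 CPM in Telaglenastat tumors (0.64 as counted, 1.65 corrected), and the forkhead factor FOXC1 stood at 45.5 to 57.4 CPM in Palbociclib and 59.98 to 85.8 CPM in Telaglenastat tumors (0.49 as counted, 1.24 corrected). These 3 transcripts have GC contents of 58.5%, 59.0% and 56.3%, and the correction raised their differences. PEG10, an imprinted gene derived from a retrotransposon, needed no such shift: it had 18.4, 18.3, 24.8, 16.8 and 14.04 CPM in Palbociclib tumors and 60.2, 78.6, 50.9 and 84.1 CPM in Telaglenastat tumors, 3.68-fold higher in Telaglenastat tumors (log2 difference 1.88 ± 0.15, adjusted p = 3.61e-09). DPAGT1, the first enzyme of N-glycan assembly, stood at 16.1 to 20.2 CPM in Palbociclib and 21.4 to 25.2 CPM in Telaglenastat tumors (0.34 as counted, 1.29 corrected), an as-counted call that was lost without any of 6 single libraries (adjusted p up to 0.0847). The neuronal calcium sensor VSNL1 was lower, at 52.7 to 68.8 CPM in Palbociclib and 15.8 to 25.5 CPM in Telaglenastat tumors (-1.47 as counted, -1.85 corrected).

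A direct difference does not say which drug group departed from untreated tumors, so each drug is set beside the same 3 Control tumors, which both comparisons share. After the correction the median log2 difference of the G2/M genes from Control was -0.76 in Palbociclib and -0.02 in Telaglenastat tumors, and of the S phase genes -0.55 and 0.03. As counted the medians were -0.77 and 0.27 for the G2/M genes and -0.58 and 0.23 for the S phase genes. The division lists were thus below Control in Palbociclib tumors in both fits. In Telaglenastat tumors they were near Control only after the correction. MKI67 differed from Control by -1.05 in Palbociclib tumors (adjusted p = 1.00e-05) and by 0.08 in Telaglenastat tumors (adjusted p = 0.592). The antimicrobial and kallikrein list was displaced in Palbociclib tumors, by 1.18 after the correction and 1.19 as counted. In Telaglenastat tumors it was displaced by -0.27 after the correction and -0.74 as counted, so the distance of these tumors from Control depended on the correction. CCND1 differed from Control by 0.95 in Palbociclib tumors (adjusted p = 1.64e-06) and by 0.02 in Telaglenastat tumors (adjusted p = 0.864).

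Other lists were arranged differently around Control tumors. Ribosomal protein genes had corrected medians of 0.18 in Palbociclib and -0.26 in Telaglenastat tumors, on opposite sides of Control. The medians of mitochondrially encoded genes lay above Control in both, at 0.52 and 0.11. The corrected list mean of Telaglenastat tumor 2 (11.11), however, lay below the Control tumors (11.65, 11.48 and 11.60). For nuclear respiratory genes the values were -0.01 and -0.15, and for the pentose phosphate pathway -0.05 and -0.23. As counted the medians were 0.19 and -0.40 for ribosomal protein genes and 0.55 and 0.26 for mitochondrially encoded genes. They were 0.00 and -0.14 for nuclear respiratory genes and -0.07 and -0.31 for the pentose phosphate pathway. SPARC differed from Control by -0.03 in Palbociclib tumors (adjusted p = 0.956) and by -1.92 in Telaglenastat tumors (adjusted p = 1.73e-08), and COX4I1 by 0.03 and -1.59. For HMGB2 the 2 drugs stood on opposite sides of Control, -1.21 (adjusted p = 4.55e-06) and 0.32 (adjusted p = 0.0440).

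**Figure D3:**
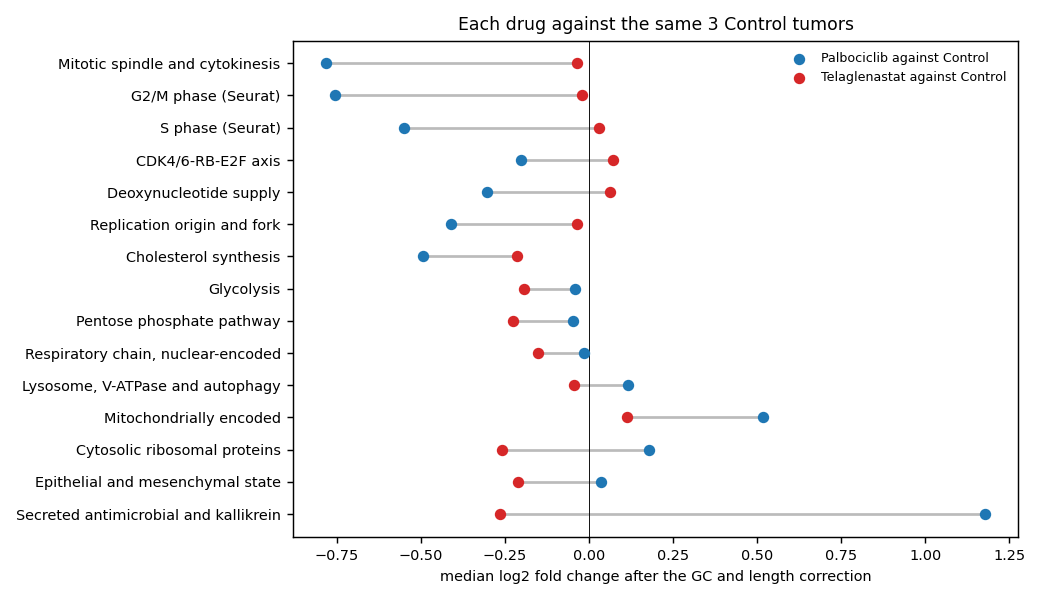
Median log2 fold change of 15 gene lists in Palbociclib (blue) and Telaglenastat (red) tumors, each against the same 3 Control tumors, after the GC and length correction. The G2/M list lies at -0.76 for Palbociclib and -0.02 for Telaglenastat, and the antimicrobial and kallikrein list at 1.18 and -0.27. As counted (not drawn) these medians were -0.77 and 0.27, and 1.19 and -0.74.

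The same contrast was measured in cultures grown without drug from tumors of these treatments, 3 per drug. Of 13985 genes tested by edgeR none passed (0.0%), with 2525 at an unadjusted p below 0.05 and a smallest adjusted p of 0.174, while DESeq2 called 371. Without Telaglenastat culture 1 edgeR called 385. The GC slope, again relative to the mean of these 6 libraries, was -0.115 ± 0.0171 (SD, n = 3) in Palbociclib and 0.115 ± 0.263 (SD, n = 3) in Telaglenastat cultures, of which culture 2 stood at 0.419 (p = 0.1 by a two-sided exact permutation test, the least it can give with 3 against 3). Of genes called higher both ways in tumors and tested in cultures, 25.7% were higher in Telaglenastat cultures after the correction, against 50.9% of all 13705 genes tested in both. Of genes called lower in tumors 17.6% were lower in cultures, against 49.1%, with corrected culture medians of -0.11 and 0.25 for the 2 sets. The G2/M list had a corrected culture median of -0.14 over 54 genes and the ribosomal list one of 0.32 over 79.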

How the data were processed

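RNA-seq counts of xenograft tumors and derived cultures were analysed. Per the labels and methods, the authors purified poly(A) RNA (RNA integrity number above 8), made strand-specific libraries, sequenced 60-base single-end reads, and aligned and counted them per gene with STAR after CASAVA 1.8, on hg38. The deposited values are raw counts, not normalized. The STAR version and the strand setting of the counting are not given in the sources used here.

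Groups came from the labels. Members and gene lists were chosen with earlier results of these data known. Of 58278 genes, 22232 had no count. The 16 tumors were fitted as 4 group means in edgeR 4.0.16 (R 4.3.3; filterByExpr with a minimum count of 10, TMM, glmQLFTest, Benjamini-Hochberg over 14848 genes, threshold 0.05), and the 12 cultures likewise. Standard errors came from the log2 fold change and F statistic. CPM used TMM-scaled library sizes, and log2 CPM for slopes a prior count of 2. The correction removed from each library a robust spline (4 degrees of freedom each for GC content and log2 length, MASS 7.3.60.0.1) fitted to deviations of log2 CPM, with GC content from the longest GENCODE 29 transcript for 99.7% of tested genes. The fit was tested on simulated data with known changes.

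Genes named were the 12 largest corrected rises and falls among protein-coding genes called both ways with a mean of at least 3 log2 CPM, no same-strand overlap and no overlap between groups (1695 eligible), then in each list up to 3 members with the largest corrected change and the 2 most abundant, and the drug targets and partners. Exceptions to a count and marker genes were named after their values were seen. Some genes that met the rule are not reported here. Of the named genes, PRIM1, RRM2, NME1, GAS2L3, CBX5, PYCR1, ALDOA, SLC16A3, GPI, NDUFA11, ATP5G2, FADS1, ETFB, ACAA1, BOP1, MUC1, IFITM1, IFITM2, RNF43, CTSD, NPC2, PRMT1, WDR77 and CD68 overlap another gene on their strand, so their counts are uncertain. The S and G2/M lists came with Seurat 5.3.0. Alternatives were DESeq2 1.42.0, its size factors, other filters and fits, protein-coding genes only, a replicate block, the corrections, and leaving out each library. No pair of libraries agreed within sampling noise.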

Additional observations from a re-analysis of the deposited data

Results flagged for a closer look

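In 326 tests of a gene, list mean or library summary within 1 drug group, 38 values lay farther from the rest of their group than Dixon's 95% critical value allows. Chance flags about 1 in 20 groups. Of these values 22 belonged to Palbociclib tumor 2. Its GC slope (0.0835) and first principal component (-18.3) were far from those of the other Palbociclib tumors. It was low for the keratins KRT8 (1078 CPM), KRT18 (986 CPM) and KRT19 (359 CPM), for ALDOA (567 CPM), SLC16A3 (51.3 CPM), OGDH (69.1 CPM), ATP5G2 (105 CPM), FASN (91.2 CPM) and FADS3 (13.1 CPM). It was low as well for RRP9 (13.1 CPM), IFITM2 (46.8 CPM), GAA (31.2 CPM), PRMT1 (91.5 CPM), MCM5 (35.4 CPM) and LIG1 (25.2 CPM), and for the means of the interferon list (6.24 on the log2 scale) and the mTOR list (5.00). It was high for EPCAM (467 CPM), MT-ND6 (2544 CPM) and the mean of the mitochondrially encoded genes (12.6). In Palbociclib tumor 3 SPARC (60.2 CPM) and KLK7 (61.7 CPM) were low and NR2F1 (127 CPM) and VIM (235 CPM) high, and in Palbociclib tumor 1 KIF20A (49.2 CPM) was high.

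In the Telaglenastat group, tumor 2 was high for IDH3G (11.8 CPM) and low for MT-ND6 (806 CPM), CCND3 (12.8 CPM) and the mean of the mitochondrially encoded genes (11.2). Tumor 3 was low for SLC38A5 (15.2 CPM) and for the means of the lists of deoxynucleotide supply (6.70), serine and one-carbon metabolism (5.52) and arginine methyltransferases (5.53). Tumor 4 was high for ATP5G2 (47.6 CPM) and low for E2F7 (33.3 CPM), and tumor 1 was high for ACAA1 (16.4 CPM).

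The difference between drugs was not the same in tumors and in cultures for 20 of 31 genes tested by an edgeR interaction term over all 28 libraries (adjusted p below 0.05 as counted and after the correction). The 31 were the genes named for the largest corrected rises and falls in tumors, with the drug targets and partners. For the former a large tumor difference was thus fixed by selection. As counted, 22 of the 31 passed, against 2392 of the 2776 genes called both ways. Values are the tumor difference minus the culture difference on the log2 scale, as counted. Among genes lower in Telaglenastat tumors it was -4.21 for IGFBP6, -3.84 for SUSD2, -3.81 for FADS3, -3.80 for RPS9, -2.75 for G6PC3, -2.23 for CST3, -1.72 for VSNL1, -1.61 for MMP7, -0.90 for F3 and -0.62 for CCND1. Among genes higher in Telaglenastat tumors it was 2.38 for CCNE2, 2.33 for FAM111B, 2.02 for PEG10, 1.70 for LMNB1, 1.603 for KIF20A, 1.48 for HMGB2, 1.43 for PSMC3IP, 1.16 for RB1, 0.999 for TCF19 and 0.51 for DPAGT1. The difference in GC slope between the drugs had opposite signs in tumors and in cultures, and tumors and cultures also differ in host cells and in the presence of drug, which cannot be told apart here.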

How the results depend on the processing

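With the correction for GC content and length, the total of 8723 calls became 4442, or 4435 with GC content alone, the calls higher in Telaglenastat tumors 2109 and 2153, and those lower 2333 and 2282. Calls 2-fold or more lower went from 2675 to 437, or 463 with GC content alone. Keeping library means in the correction, added after the data had been seen, gave 887 higher and 5392 lower, 142 and 842 of them by 2-fold or more, and moved the median of all genes by -0.22. Requiring 10 counts in every library left 131 of 265 calls 2-fold higher. One fit of all 28 libraries gave 4660 higher and 3980 lower, with a median of 0.10. Leaving out single tumors gave totals from 8138 to 8926, and leaving out single cultures 0 to 385 calls in cultures, where DESeq2 gave 371.

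Replicate numbers did not pair the tumors: deviations of same-numbered tumors correlated at 0.055, -0.050, -0.037 and -0.024. With the replicate number as a block the total was 8214, with 2025 lower, 1792 higher and 3817 in all, and 387 lower by 2-fold or more, when the block was joined to the correction, and 0 in cultures.

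Of the named genes, GLUD1 turned from 0.12 to -0.041 (GC and length), -0.022 (GC), -0.076 (with block) and -0.27 (means kept), and GLUL from 0.19 to -0.066, -0.049, -0.059 and -0.29. MUC1 turned from -1.10 to 0.91, 0.94, 0.85 and 0.69. CDK4 turned from -0.49 to 0.0046 and, with the block, 0.023, CCND3 from -0.77 to 0.00046, 0.00098 (GC) and 0.033 (with block), and EPCAM from 0.24 to -0.059 with means kept. The as-counted call of GLUL was lost without Palbociclib tumor 3 or Telaglenastat tumor 1. List medians changed sign for 10 of 34 lists after the correction and for 5 with means kept. The cause was not tested. Depth limits genes below about 1 CPM, and the drugs' effects cannot be told apart from the GC trend by these libraries alone.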

Other observations

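Lysosomal and interferon genes were a further set with members lower in Telaglenastat tumors. Counts given without another setting are of genes called both ways, which were 7.34% higher and 11.4% lower over all tested genes. Of 39 genes of the lysosome, V-ATPase and autophagy, 13 were lower with and without the correction and 2 higher, with medians of -0.33 as counted and -0.18 after it. CTSD, the protease cathepsin D, stood at 59.7 to 135 CPM in Palbociclib and 13.5 to 20.7 CPM in Telaglenastat tumors (-2.67 as counted, -1.15 corrected). GAA, the acid alpha-glucosidase that degrades glycogen, stood at 31.2 to 71.9 CPM in Palbociclib and 7.94 to 12.8 CPM in Telaglenastat tumors (-2.59 as counted, -1.08 corrected). NPC2, a cholesterol carrier of the lysosome, stood at 105 to 184 CPM in Palbociclib and 72.0 to 81.4 CPM in Telaglenastat tumors (-0.85 as counted, -1.03 corrected). Of 39 interferon and antigen presentation genes 11 were lower both ways and none higher (1 without Palbociclib tumor 2 or Telaglenastat tumor 1). As counted 23 were lower and 7 higher, with a median of -0.59. After the correction 12 were lower and 7 higher, with a median of -0.07. IFI27, an interferon-induced mitochondrial protein, had 256, 209, 262, 278 and 274 CPM in Palbociclib tumors and 102, 100.5, 96.9 and 112 CPM in Telaglenastat tumors, a log2 difference of -1.32 ± 0.08 (adjusted p = 3.50e-10). IFITM1, a membrane protein that hinders virus entry, stood at 76.4 to 114 CPM in Palbociclib and 21.3 to 38.8 CPM in Telaglenastat tumors (-1.54 as counted, -1.05 corrected). IFITM2 stood at 46.8 to 101.5 CPM in Palbociclib and 19.2 to 23.2 CPM in Telaglenastat tumors (-2.03 as counted, -1.23 corrected), and reads of these 2 neighbouring paralogs can be shared. Of 32 genes of mTOR complexes and regulators 9 were lower and 2 higher, with 4 higher without Palbociclib tumor 3 and 1 without Palbociclib tumor 4 or 5 or any Telaglenastat tumor. The lower ones included the lysosomal scaffold genes LAMTOR2 at 11.96 to 17.3 CPM in Palbociclib and 2.58 to 4.46 CPM in Telaglenastat tumors (-1.98 as counted, -1.46 corrected) and LAMTOR4 at 9.73 to 16.9 CPM in Palbociclib and 1.95 to 4.32 CPM in Telaglenastat tumors (-2.23 as counted, -0.97 corrected). NPRL3, a subunit of the GATOR1 complex that restrains mTORC1, stood at 6.05 to 15.7 CPM in Palbociclib and 2.38 to 2.93 CPM in Telaglenastat tumors (-2.23 as counted, -0.94 corrected). FTL, the ferritin light chain, was among 6 lower genes (2 higher, or 1 without Telaglenastat tumor 3 or 4) of 24 NRF2 and glutathione genes, at 356 to 604 CPM in Palbociclib and 104 to 141 CPM in Telaglenastat tumors (-2.08 as counted, -1.19 corrected).

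Signalling and stress lists were mixed. Counts given without another setting are of genes called both ways. Of 30 hypoxia genes 6 were lower and 1 higher: ANGPTL4, a secreted lipase inhibitor, stood at 24.4 to 67.5 CPM in Palbociclib and 4.91 to 8.08 CPM in Telaglenastat tumors (-3.05 as counted, -1.56 corrected). P4HA2, a collagen prolyl hydroxylase, stood at 93.1 to 116 CPM in Palbociclib and 52.3 to 66.5 CPM in Telaglenastat tumors (-0.77 as counted, -0.75 corrected). ANKRD37 stood at 11.8 to 28.9 CPM in Palbociclib and 9.23 to 20.8 CPM in Telaglenastat tumors (-0.67 as counted, -0.93 corrected, an as-counted call lost without any of 6 single libraries). The mitophagy receptor BNIP3 was the higher one, at 100.1 to 139.7 CPM in Palbociclib and 152 to 191 CPM in Telaglenastat tumors (0.51 as counted, 0.74 corrected). Of 29 p53 targets 4 were lower (2 without Telaglenastat tumor 4), among them the pore-forming BAX at 17.1 to 28.9 CPM in Palbociclib and 3.72 to 6.38 CPM in Telaglenastat tumors (-2.14 as counted, -1.04 corrected), and 1 higher (2 without Palbociclib tumor 3). Of 30 MAPK output genes 4 were lower and 2 higher both ways. As counted 13 were lower and 5 higher, and after the correction 5 were lower and 9 higher. ETV1, an ETS factor downstream of ERK, had 22.6, 28.3, 37.7, 26.2 and 20.03 CPM in Palbociclib tumors and 53.2, 78.4, 65.0 and 70.1 CPM in Telaglenastat tumors (1.30 as counted, 0.86 corrected). The receptor ERBB2 stood at 52.2 to 89.2 CPM in Palbociclib and 20.04 to 27.1 CPM in Telaglenastat tumors (-1.70 as counted, -0.82 corrected). Of 19 WNT targets 4 were lower, including the receptor EPHB2 at 31.0 to 47.7 CPM in Palbociclib and 11.5 to 13.1 CPM in Telaglenastat tumors (-1.72 as counted, -1.04 corrected) and RNF43, a ubiquitin ligase that removes WNT receptors, at 46.9 to 83.7 CPM in Palbociclib and 24.4 to 39.9 CPM in Telaglenastat tumors (-1.003 as counted, -0.84 corrected), and 2 higher (1 without Palbociclib tumor 3 or 4 or Telaglenastat tumor 1 or 4). Of 12 arginine methyltransferase genes 3 were lower both ways and none higher. As counted 5 were lower and 5 higher, and after the correction 4 were lower and 1 higher. PRMT1 stood at 91.5 to 181 CPM in Palbociclib and 46.2 to 60.5 CPM in Telaglenastat tumors (-1.48 as counted, -0.61 corrected). PRMT2 stood at 53.4 to 74.3 CPM in Palbociclib and 38.6 to 44.3 CPM in Telaglenastat tumors (-0.66 as counted, -0.74 corrected). The PRMT5 cofactor WDR77 stood at 38.1 to 47.9 CPM in Palbociclib and 28.2 to 35.7 CPM in Telaglenastat tumors (-0.43 as counted, -0.43 corrected). Of 42 genes of protein folding and export 6 were lower both ways and none higher. As counted 14 were higher and 12 lower (median 0.11), and after the correction 1 was higher and 14 lower (median -0.13). The endoplasmic reticulum protein CRELD2, on the lower side, stood at 15.8 to 24.5 CPM in Palbociclib and 7.14 to 8.81 CPM in Telaglenastat tumors (-1.40 as counted, -0.82 corrected). Of 20 aminoacyl-tRNA synthetases 4 were lower both ways and none higher. As counted 10 were lower and 8 higher, and after the correction 4 were lower and 1 higher. Of 23 genes of serine and one-carbon metabolism 1 was lower (2 without Palbociclib tumor 2 or Telaglenastat tumor 1), the folate enzyme FPGS at 15.6 to 30.8 CPM in Palbociclib and 3.87 to 6.27 CPM in Telaglenastat tumors (-2.25 as counted, -0.75 corrected), and 2 higher. Over all tested genes the shares were 7.34% higher and 11.4% lower.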
